A study of Mus musculus with 6 samples.

Results

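The genes described here are the cadherins and protocadherins of the mouse: every gene whose symbol is Cdh followed by a number or begins with Pcdh, without Cdh17. They came to 91 of the 21959 genes with a usable value in both conditions, out of 21966 in the deposited table, and were picked by symbol and not by level. The 22 cadherins and 69 protocadherins carry 90 distinct symbols, since Pcdha11 belongs to 2 identifiers. Of the symbols in the reference that fit the rule, Pcdhgb8 was not analysed here.

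The study asked what inhibition of the Group I Paks, kinases that act below Rac and Cdc42, does to transcription in colonic tumor cells of Apc mutant mice. Poly(A) RNA of primary colonic tumor cell lines was sequenced, with 3 samples in PID+ (numbered 4, 7 and 26) and 3 in PID- (numbered 1, 2 and 3). The PID+ lines came from mice with the Cre transgene CDX2P-NLS-Cre, a deleted allele of Apc (APC Δ/+) and ROSA26-PID, a Gst-PID-IRES-eGFP allele at Rosa26 that Cre switches on and that makes a peptide of the Pak inhibitory domain. The PID- lines came from littermates with CDX2P-NLS-Cre and APC Δ/+ but no PID allele.

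Both groups thus share the Cre transgene and the deleted Apc allele, and the mice were followed to 8 months of age. The Cre and Apc strains are given as C57BL6/J. Cre runs from the CDX2 promoter, so the alleles it acts on change chiefly in lining cells of the large bowel and lower small bowel. Each line is a culture grown out of a tumor, kept in serum. The numbers of the PID- samples in the labels are not those by which the paper calls its PID- lines. In the labels the PID- samples are normal and untreated, yet the treatment protocol given for every sample is tumor induction. They name 3 mice a condition, whereas the methods speak of replicated sequencing runs. The table calls its conditions treated and untreated, read here as PID+ and PID-.

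Levels are FPKM, fragments scaled by transcript length and by mapped fragments, so that they can be set side by side between genes of unequal length. The authors merged the reads of a condition before CuffDiff, and the table holds 1 pooled value per gene and condition. There is accordingly no check against replicates, no test and no p-value anywhere below, and an interval in brackets is the one CuffDiff deposited, from its own error model. Changes are log2 ratios of FPKM + 1, PID+ over PID-, and a gene is called when that ratio passes 3-fold. The table gives no read counts and the depth is unknown. From the spacing of low values, the FPKM that 1 read stands for was 1.37 times larger in PID+ than in PID-, and a gene whose estimated reads in a condition number 3 or fewer is treated as at the floor. A fold given as at least sets the pooled FPKM of the other condition against 3 estimated reads. It leaves out the deposited interval of that FPKM and any change of scale.

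Cadherins hold cells together by binding their like on the neighbouring cell in the presence of calcium, and the classical members tie the membrane to actin through the catenins. In the gut, E-cadherin seals the epithelium, and its replacement by N-cadherin is a known mark of an epithelial cell turning mesenchymal. Protocadherins adhere weakly and sort cells from one another, above all neurons, and the clustered ones lie in tandem arrays whose variable first exons each have a promoter of their own.

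Among the 91 members, Pcdhgb6 rose and Pcdhga9 and Cdh13 fell in PID+ by the 3-fold threshold. The single rise stands beside 1.04% of all 21959 genes called higher (229 genes), and the 2 falls beside 1.72% called lower (377 genes). 16 members reached an FPKM of 1 in either condition, a filter that lets a gene in through its higher condition. A call needs an FPKM of at least 2, so the 3 called members are among these 16 by construction, as are all called genes among the 11785 that reach FPKM 1: 1.94% of these were called higher and 3.20% lower. The median log2 change was -0.15 over these 16 members (7 above 0 and 9 below) and -0.01 over the 11785 genes. At 2-fold, 3 members were higher (Cdh24, Pcdhgb6 and Cdh1) beside 3.31% of all genes, and 4 were lower (Pcdh9, Pcdhgb2, Pcdhga9 and Cdh13) beside 3.77%. Deposited intervals of the conditions lay apart in 0 members and in 0.729% of all genes. In bulk RNA, fewer cells of a type and less RNA per cell cannot be told apart.

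The scale between the conditions matters for the counts. Setting Gapdh equal, which had an FPKM of 2570.3 in PID+ against 1666 in PID-, moved the median log2 change of all genes reaching FPKM 1 from -0.01 to -0.57, and setting total FPKM equal moved it to -0.10. With equal Gapdh, 76 genes of the table were called higher and 662 lower, in place of 229 and 377, and 0 and 2 members, in place of 1 and 2.

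The level of the family rests on few genes. Summed over the members, FPKM was 351 in PID+ and 304 in PID-, an order that turns with equal Gapdh. Cdh1, Pcdh1, Cdh2, Cdh13 and Pcdhgc3 were the 5 highest in both conditions and made up 91.6% of the sum in PID+ and 89.0% in PID-. Cdh1 alone held 54.8% in PID+ and 29.0% in PID-, where Cdh13 took first place.

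**Figure D1:**
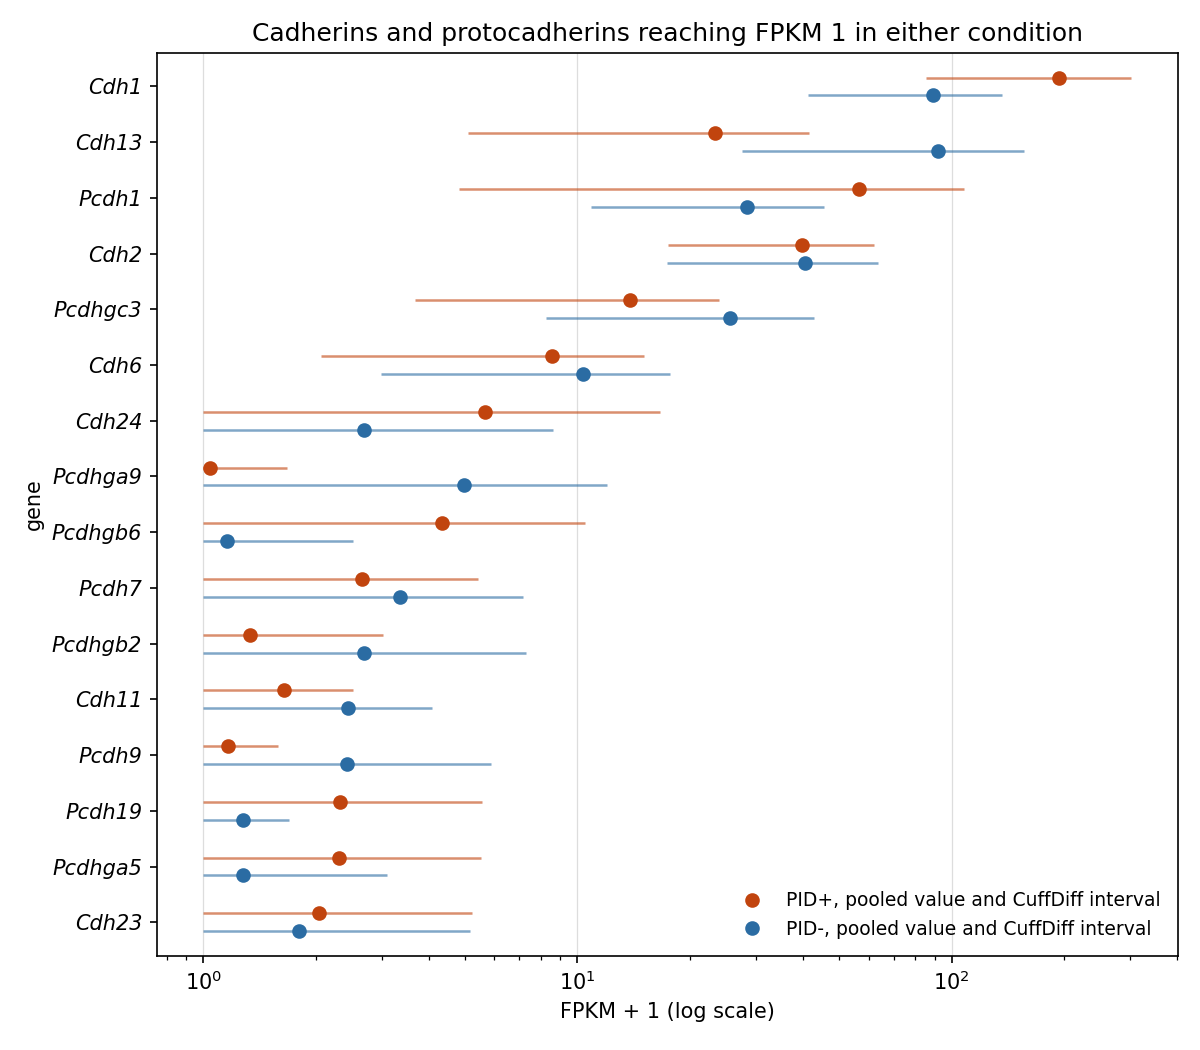
FPKM + 1 on a log axis for the 16 members that reached an FPKM of 1, with PID+ in orange and PID- in blue. Points are the pooled values (1 per condition) and lines the intervals CuffDiff deposited. The intervals of each gene overlap between the conditions, also for Cdh13, at 22.3 in PID+ and 91.0 in PID-.

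Of the 5 classical type I cadherins, 2 reached an FPKM of 1 and 0 were called. Cdh1 (ENSMUSG00000000303.9, GRCm38 chromosome 8 from 106603351 to 106670246), which encodes E-cadherin of epithelial junctions, had an FPKM of 192 (84.3 to 301) in PID+ against 88.0 (40.4 to 136) in PID-. Cdh2 (ENSMUSG00000024304.11, chromosome 18 from 16588877 to 16809246), which encodes N-cadherin of neural and mesenchymal cells, had 38.8 (16.5 to 61.0) and 39.4 (16.4 to 62.5). Cdh1 was thus the higher of the pair in both conditions, with the intervals apart in PID+ but not in PID-. The ratio of their FPKM was 4.96 in PID+ and 2.23 in PID-. Their log2 changes were 1.12 for Cdh1 and -0.02 for Cdh2, or 0.50 and -0.63 with Gapdh set equal in the conditions.

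The other type I members were low. Cdh3, the P-cadherin gene, ends 46053 bases before Cdh1 on chromosome 8. It had an FPKM of 0.926 (0 to 2.11) in PID+ against 0.423 (0 to 1.28) in PID-, far below Cdh1. The log2 change of Cdh3 was 0.44, and its intervals overlap. Cdh15, the M-cadherin of muscle, stood at 0.0885 and 0.336. Cdh4, the R-cadherin gene, was at the floor in PID+ with 0.00472 and had 0.103 (0 to 0.564) in PID-. By the pooled value this was at least 14.4-fold lower in PID+, with a log2 change of -0.13.

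Type II cadherins lack the conserved His-Ala-Val motif of type I but bind the same catenins. 3 of the 13 reached an FPKM of 1 and 0 were called. Cdh6 (ENSMUSG00000039385.4, chromosome 15 from 13028701 to 13173675), the K-cadherin gene first known from kidney, had an FPKM of 7.57 (1.06 to 14.1) in PID+ against 9.34 (1.99 to 16.7) in PID-. Cdh24 (ENSMUSG00000059674.6, chromosome 14 from 54631231 to 54641364) had 4.67 (0 to 15.6) and 1.69 (0 to 7.62), a log2 change of 1.08. Cdh11 (ENSMUSG00000031673.5, chromosome 8 from 102632095 to 102785642), the OB-cadherin of osteoblasts and mesenchyme, had 0.646 (0 to 1.51) and 1.44 (0 to 3.09). The log2 changes of Cdh6 and Cdh11 were -0.27 and -0.57, and Cdh6 was the type II member with the highest level in each condition.

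The 10 type II members below an FPKM of 1 reached at most 0.356, the value of Cdh10 in PID-. Cdh7, Cdh9 and Cdh20 were listed at 0 in both conditions. Cdh5, the VE-cadherin of endothelium, had an FPKM of 0.219 (0 to 0.647) in PID+ against 0.00279 in PID-, where it was at the floor. By the pooled value this was at least 26-fold higher in PID+, with a log2 change of 0.28. Among the other endothelial markers, Kdr had 3.33 and 1.01, Pecam1 0.0960 and 0.0931, and Tek 0.0168 and 0.0149. Emcn had 0.109 (0 to 0.337) and 0, at least 8.14-fold higher in PID+ by the pooled value, while Cldn5 was listed at 0 in both conditions.

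Of the 4 members outside these classes, Cdh13 changed most. Cdh13 (ENSMUSG00000031841.15, chromosome 8 from 118283733 to 119324921) encodes T-cadherin, which has no cytoplasmic tail, is held in the membrane by a lipid anchor and binds adiponectin. Its FPKM was 22.3 (4.09 to 40.5) in PID+ and 91.0 (26.5 to 155) in PID-, a fall of 4.08-fold in PID+ with a log2 change of -1.98. Next to Cdh1, it went from level in PID- to far below: Cdh1 over Cdh13 was 0.967 in PID- and 8.64 in PID+. The median log2 change of chromosome 8 was -0.13 over 525 genes (those whose mean FPKM was 5 or more), so that Cdh1 and Cdh13 lay on either side of it.

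Cdh23 (ENSMUSG00000012819.12, chromosome 10 from 60302748 to 60696490), a long cadherin of the tip links between hair cell stereocilia, had an FPKM of 1.03 (0 to 4.22) in PID+ against 0.807 (0 to 4.18) in PID-, a log2 change of 0.17 that became -0.11 with equal Gapdh. Cdh16, the kidney cadherin, was listed at 0 in both conditions. Cdh26 reached no more than 0.0378.

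Outside the clusters there were 12 protocadherins, of which 4 reached an FPKM of 1 and 0 were called. Pcdh1 (ENSMUSG00000051375.12, chromosome 18 from 38185914 to 38212053), a delta-1 protocadherin known from airway epithelium, was by far the highest, with 55.5 (3.83 to 107) in PID+ and 27.3 (9.89 to 44.7) in PID-. The ratio of these values was 2.03, and with equal Gapdh the log2 change was 0.39.

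The other delta-1 members were lower and went the other way. Pcdh7 (ENSMUSG00000029108.11, chromosome 5 from 57717967 to 58133230) had an FPKM of 1.66 (0 to 4.41) in PID+ against 2.35 (0 to 6.14) in PID-. Pcdh9 (ENSMUSG00000055421.5, chromosome 14 from 93013410 to 93890679), best known from the brain, had 0.165 (0 to 0.588) and 1.42 (0 to 4.87). Pcdh9 thus lay at -1.05 on the log2 scale, on a chromosome whose median was 0.25. Pcdh11x, on the X chromosome, was listed at 0 in PID+ and at 0.111 (0 to 0.294) in PID-. By the pooled value this was at least 22.3-fold lower in PID+, with a log2 change of -0.15.

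Of the 5 delta-2 protocadherins, whose tails can recruit regulators of actin, all had the higher value in PID+, Pcdh8 only at the floor, and 0 were called. Pcdh19 (ENSMUSG00000051323.13, X chromosome from 133582860 to 133688987), which pairs with N-cadherin and is mutated in a form of epilepsy, had an FPKM of 1.33 (0 to 4.55) in PID+ against 0.277 (0 to 0.699) in PID-. Its log2 change of 0.87 stood against a median of -0.45 for the X chromosome. Pcdh18 had 0.706 and 0.428, Pcdh10 0.0815 and 0.0190, and Pcdh17 0.284 and 0.00682. Of the remaining 3, Pcdh15, the partner of Cdh23 in tip links, Pcdh12 of endothelium and Pcdh20 stayed at or under 0.0187.

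The 57 clustered protocadherins lie in 3 neighbouring arrays on chromosome 18, between 36930184 and 37841873. Of the members as a whole, 60 are on this chromosome, whose median log2 change was -0.02 over 234 genes. The arrays differed in level. Summed FPKM was 0.00284 in PID+ and 0.0386 in PID- over the 14 Pcdha genes, 2.51 and 4.43 over the 22 Pcdhb genes, and 20.2 and 34.2 over the 21 Pcdhg genes. The Pcdha array was all but silent: it amounted to about 1 estimated read in PID+ and 18.7 in PID-. Log2 changes of the sums were -0.63 for Pcdhb and -0.73 for Pcdhg, and both stayed below 0 in each scaling tried.

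Most Pcdhg signal came from one gene. Pcdhgc3 (ENSMUSG00000102918.1, from 37806364 to 37841873), a C-type gene, of the kind that neurons express outside the random choice among the other variable genes, had an FPKM of 12.8 (2.68 to 23.0) in PID+ against 24.5 (7.26 to 41.7) in PID-. It held 63.3% of the Pcdhg sum in PID+ and 71.7% in PID-, and its log2 change was -0.88. The other C-type genes of the array, Pcdhgc4 and Pcdhgc5, had 0.131 and 0.231 in PID+ and 0.306 and 0.186 in PID-.

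The 18 Pcdhga and Pcdhgb genes had different leaders in the conditions. Their summed FPKM was 7.07 in PID+ and 9.19 in PID-, a log2 change of -0.34. Pcdhgb6 (ENSMUSG00000103088.1, from 37742094 to 37841873) had an FPKM of 3.33 (0 to 9.46) in PID+ against 0.155 (0 to 1.52) in PID-, a log2 change of 1.91. Pcdhga9 (ENSMUSG00000102440.1, from 37736936 to 37841870) had 0.0440 (0 to 0.674) and 3.99 (0 to 11), a log2 change of -2.26. These 2 genes are next to each other in the array, and each led in the condition where the other was low. Pcdhgb6 made up 47.2% of the 18 genes' sum in PID+ and 1.69% in PID-, and Pcdhga9 0.623% in PID+ and 43.4% in PID-. As FPKM ratios, Pcdhgb6 was 21.4-fold higher and Pcdhga9 90.7-fold lower in PID+. With equal Gapdh the log2 change of Pcdhgb6 was 1.45, short of 3-fold, and that of Pcdhga9 -2.28.

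The genes next in line differed as well. In PID+ they were Pcdhga5 (ENSMUSG00000103567.1, from 37694380 to 37841873), with an FPKM of 1.31 (0 to 4.51) in PID+ against 0.279 (0 to 2.1) in PID-, and Pcdhga11, with 0.945 and 0.0713. In PID- they were Pcdhgb2 (ENSMUSG00000102748.1, from 37689828 to 37841873), with 0.336 (0 to 2.02) in PID+ and 1.69 (0 to 6.28) in PID-, and Pcdhga6, with 0.0677 and 0.880. Pcdhgb2 and Pcdhga5 are neighbours on the array, with log2 changes of -1.01 and 0.85. Not all neighbours differed so: Pcdhga1, Pcdhga2, Pcdhga3 and Pcdhgb1, side by side, were all lower in PID+. Next to Pcdhga11, at 0.86, Pcdhgb7 and Pcdhga12 lay at -0.17 and -0.01. Adding up the smaller of each gene's shares in PID+ and PID- gives the part of the profile that the conditions have in common, which was 21.5% over the 18 genes. Split by kind, it was 20.1% over the 12 Pcdhga genes and 23.6% over the 6 Pcdhgb genes. Over all 21 Pcdhg genes, which Pcdhgc3 led in both conditions, it was 71.2%. The Pcdhga sum was 2.86 in PID+ and 6.80 in PID-, while the Pcdhgb sum was 4.21 and 2.40.

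**Figure D2:**
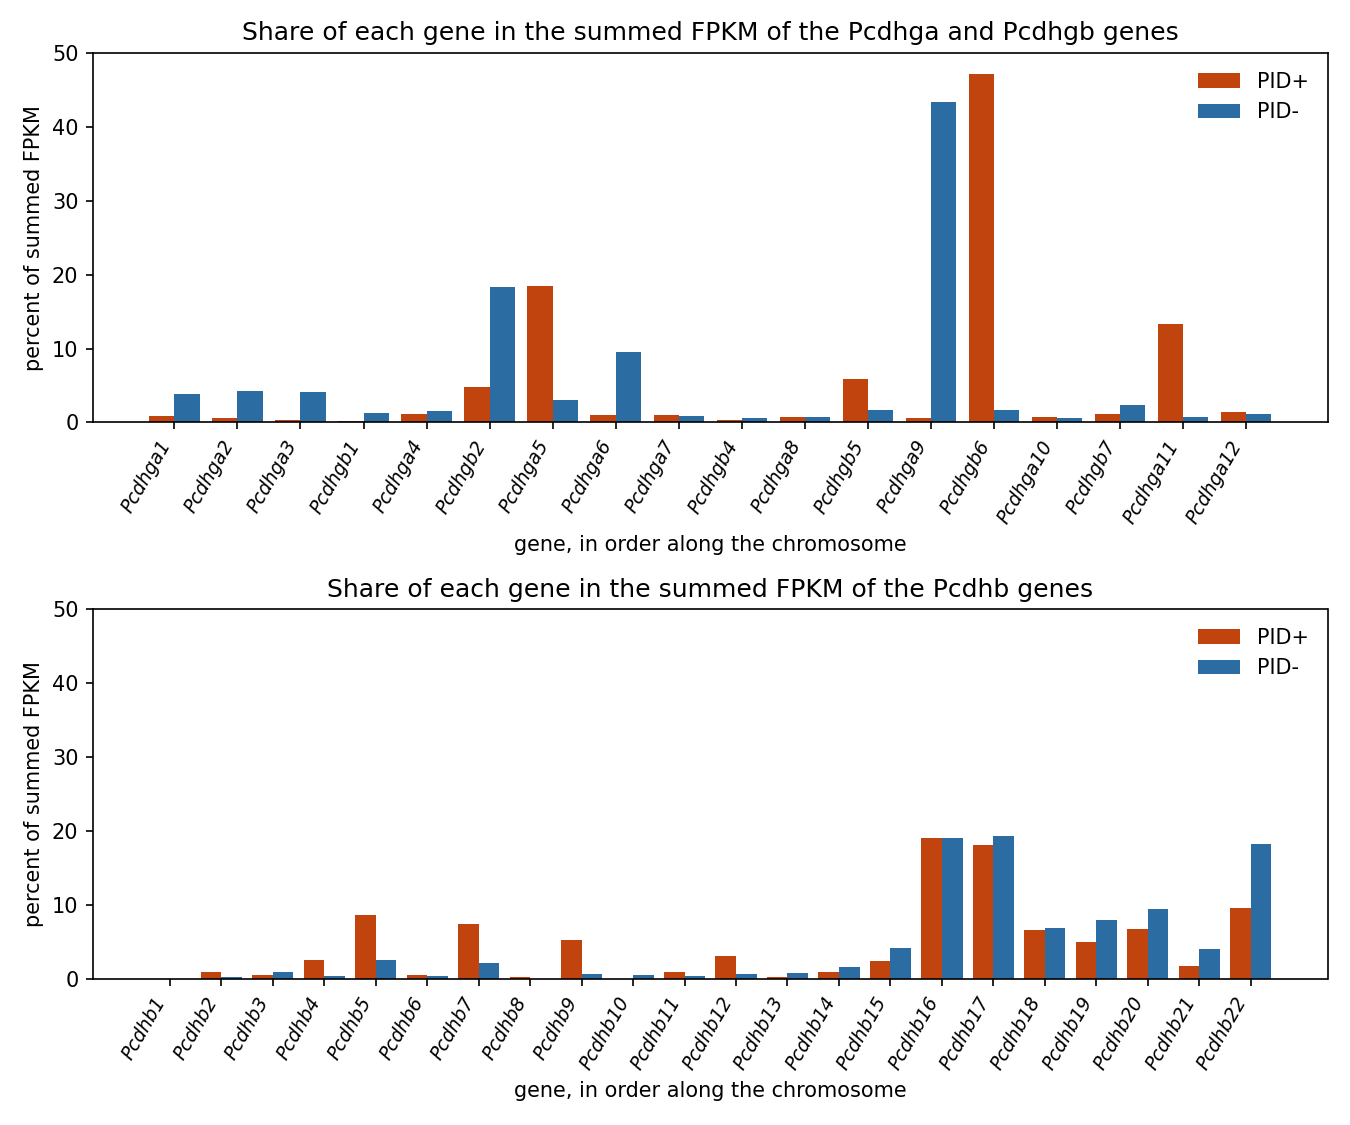
Share of each gene, in percent, of the summed FPKM of the 18 Pcdhga and Pcdhgb genes (top) and of the 22 Pcdhb genes (bottom), in order along the chromosome, with PID+ in orange and PID- in blue. Bars are pooled values (1 per condition) without an error. Pcdhgb6 leads the upper panel in PID+ at 47.2% and Pcdhga9 in PID- at 43.4%, while Pcdhb16 and Pcdhb17 lead the lower panel in both conditions.

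No such exchange was seen in the Pcdhb array, whose genes have a single exon each, with no bases in common but for 455 where Pcdhb21 and Pcdhb22 overlap. All 22 stayed below an FPKM of 1. Pcdhb16 had 0.479 in PID+ and 0.842 in PID-, and Pcdhb17 0.454 and 0.856. These 2 genes held the first places in both conditions, with 19.0% and 18.1% of the sum in PID+ and 19.0% and 19.3% in PID-, followed by Pcdhb22 with 9.51% and 18.3%. The shares in common came to 78.0%, beside 71.2% over the whole Pcdhg array with its C-type genes and 21.5% without them. Of the Pcdhb genes, 8 had the higher value in PID+ and 13 in PID-. From Pcdhb13 to Pcdhb22 each gene had the higher FPKM in PID-. Nearer the start the direction was mixed: Pcdhb5, for example, had 0.218 in PID+ and 0.111 in PID-, and Pcdhb3 0.0122 and 0.0412.

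The values of single Pcdha and Pcdhg genes are uncertain, because their transcripts share exons. Each Pcdhg transcript joins a variable first exon to the same 3 constant exons, a median of 2119 shared bases, and each Pcdha transcript does so with 2860. Counted in words of 50 bases, the read length in the labels, a median of 55.2% of a Pcdhg transcript occurred in no other gene (45.8% to 58.8%), and 39.4% of a Pcdha transcript (2.54% to 51.8%). The share was 53.7% for Pcdhga9 and 49.7% for Pcdhgb6. Reads from the constant exons fit every gene of an array, and how CuffDiff divided them is not recorded in the table. Pcdhb transcripts shared far less, with a median of 95.5% (88.0% to 100%), and the 34 members outside the clusters had at least 99.8%.

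Of the 91 members, 75 stayed below an FPKM of 1 in both conditions, with 0.945 as their highest value. 12 were listed at 0 in both, 9 in PID+ alone and 4 in PID- alone. Counting the floor, 56 members lay above it in both conditions, 14 in a single condition and 21 in none. For scale, 3 estimated reads of Pcdh17 would come to 0.00392 FPKM in PID+ and 0.00285 in PID-.

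The catenins, which carry the cadherin tail to actin, were measured beside the members with other junction genes. Of 25 catenins and junction partners, 22 reached an FPKM of 1, 1 was called higher and 0 lower, and the median log2 change was 0.12, or -0.27 with equal Gapdh. β-catenin (Ctnnb1) had an FPKM of 482 in PID+ against 435 in PID-, αE-catenin (Ctnna1) 248 and 228, and p120-catenin (Ctnnd1) 128 and 121. Plakoglobin (Jup) had 85.6 and 64.5, and Arvcf 2.94 and 5.14. With equal Gapdh the log2 changes of Ctnnb1, Ctnna1 and Ctnnd1 were -0.48, -0.50 and -0.54, beside 0.50 for Cdh1. The gene called higher was Ptprf, a receptor phosphatase found at junctions, with 43.2 and 9.71, a log2 change of 2.05 that became 1.44, short of 3-fold, with equal Gapdh. Nectins, the other adhesion receptors of these junctions, had log2 changes of 0.32 for Nectin1, 1.30 for Nectin2, 1.02 for Nectin3 and 1.5 for Nectin4, of which that of Nectin1 turned negative with equal Gapdh.

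Among 18 further genes of the cadherin superfamily, 7 reached an FPKM of 1, with 0 called higher and 1 lower, which was Cdh17. Fat1, a giant cadherin that restrains growth, was the highest of them with an FPKM of 93.0 in PID+ against 80.2 in PID-, and its log2 change of 0.21 became -0.41 with equal Gapdh. The 10 regulators of the clustered genes, which hold the insulator protein Ctcf, cohesin and the methyltransferase Dnmt3b, all had the higher value in PID+, although with equal Gapdh 7 of them, and with equal total FPKM Ctcf alone, had the lower one, and 0 were called. Ctcf had 31.9 and 31.3, Rad21 121 and 75.8, Smchd1 47.4 and 27.8, and Dnmt3b 2.74 and 1.16.

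Of the 5 EMT transcription factors, which repress Cdh1 through E-boxes in its promoter or act beside those that do, 3 were called lower in PID+ and 0 higher. Zeb2 had an FPKM of 0.821 in PID+ against 22.9 in PID-, Zeb1 0.404 and 9.35, and Snai2 1.01 and 11.5. Snai1, at 0.438 and 0.784, and Twist1, at 12.8 and 22.2, were not called. The median log2 change was -2.64, and the part of these factors in the cadherin values was not tested.

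Markers of the labelled tissue were only in part present. The 6 epithelial markers were high in both conditions, with a summed FPKM of 8768 in PID+ and 4810.4 in PID-, led by Krt18 in PID+ and Krt19 in PID-, and 2 of them, Epcam and Cldn7, were called higher in PID+. With equal Gapdh neither passed 3-fold, at log2 changes of 1.06 and 1.15, and Krt19 turned to -0.37, and with equal total FPKM Epcam fell short as well, at 1.58. The 4 intestinal markers summed to 2.39 in PID+ and 34.0 in PID-, most of it Cdh17, with Cdx2 at 0.542 and 8.04, Vil1 at 0.175 and 0.0614 and Cdx1 listed at 0 in both conditions. Of these 4 genes, Cdh17 alone reached an FPKM of 1 in PID+, and Cdh17 and Cdx2 did in PID-. Both were called lower in PID+, with log2 changes of -3.33 for Cdh17 and -2.55 for Cdx2. With equal Gapdh these were -3.69 and -2.74.

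Markers of other cell types were measured as well. The 8 fibroblast markers summed to 3.0 in PID+ and 34.1 in PID-, with 4 called lower in PID+. The most abundant were Col1a1 in PID+, at 2.32, and Col1a2 in PID-, at 11.9, and Lum was listed at 0 in both conditions and Dcn and Thy1 in PID+. The 6 endothelial markers, which hold Cdh5, summed to 3.77 and 1.12, with Kdr the most abundant. Smooth muscle and pericyte markers (4 genes) summed to 4.57 and 9.83, nearly all of it Acta2, and the median log2 change was 0.02. Myh11 had 0.0544 in PID+ and 0.0345 in PID-, and Des 0.119 and 0.0320, while Rgs5 was at the floor in both conditions. The 4 immune markers summed to 21.9 and 16.9, nearly all of it Cd68, whose log2 change of 0.35 became -0.24 with equal Gapdh, while Cd3e was listed at 0 in both conditions and Ptprc was at 0.0264 and 0.00811. The part of these markers in the result for Cdh13 or any other member was not tested.

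The study followed Cdh1 and Cdh2 by qPCR and their proteins by immunoblot. The paper reports a loss of N-cadherin by qPCR in PID+, and E-cadherin protein as nearly undetectable in PID-. The pooled FPKM of Cdh2 was 38.8 in PID+ and 39.4 in PID-, and that of Cdh1 in PID- was 88.0. What lies behind these differences was not tested, and blots read protein and not RNA. The product of the Cdh1 primers is shown because it shows which piece of Cdh1, the highest member in PID+, the qPCR reads. In the reference transcripts the primer pair matched 1 gene and gave a product of 137 bases, which lies in exons 8 and 9 of 16, outside the untranslated regions, on the plus strand of GRCm38 at chr8:106658290-106658319 and chr8:106659590-106659696. The primers, or the complement of the reverse one, are in capitals.
Cdh1 product: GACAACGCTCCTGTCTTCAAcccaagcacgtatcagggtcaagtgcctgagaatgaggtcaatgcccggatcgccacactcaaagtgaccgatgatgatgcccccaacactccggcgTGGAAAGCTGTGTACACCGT

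Promoters, stretches of 300 bases that span a start RefSeq gives for a gene, were taken from RefSeq (GRCm38.p6). This start can lie far inside the gene as placed by Gencode, as in Cdh12, Cdh18 and Pcdh15. They matched 22 of the members by symbol, 6 of them reaching an FPKM of 1: Cdh6, Cdh23, Cdh24, Pcdh7, Pcdh9 and Pcdh19. They were searched on both strands for the E-box CANNTG and for the form of it that Snai and Zeb factors are known to bind, CACCTG, which is a special case of the first. CANNTG was in 5 of the 6, all but Pcdh9, and in 72.3% of all 32851 promoters. CACCTG was in 1 of the 6, Pcdh7, and in 20.2% of all promoters. The promoter of Pcdh7 is shown for that match, and that of Cdh24 as the one of the 6 with the highest log2 change. Capitals mark the E-box. A match of letters is a description and not a binding site.
Pcdh7, chr5:57717831-57718130, plus strand: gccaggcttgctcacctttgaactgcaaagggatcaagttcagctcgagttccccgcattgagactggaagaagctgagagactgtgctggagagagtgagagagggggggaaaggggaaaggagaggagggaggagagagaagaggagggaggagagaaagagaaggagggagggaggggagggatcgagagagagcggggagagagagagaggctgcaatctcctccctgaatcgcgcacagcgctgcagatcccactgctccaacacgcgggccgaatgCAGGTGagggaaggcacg
Cdh24, chr14:54641315-54641614, minus strand: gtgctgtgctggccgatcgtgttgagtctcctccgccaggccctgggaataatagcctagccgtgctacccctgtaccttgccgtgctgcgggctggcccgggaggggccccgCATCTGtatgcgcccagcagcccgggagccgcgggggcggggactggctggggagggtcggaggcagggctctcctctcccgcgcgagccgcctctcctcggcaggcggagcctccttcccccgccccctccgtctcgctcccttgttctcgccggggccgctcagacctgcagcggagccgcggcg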

How the data were processed

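The authors removed adapters with CutAdapt 1.8.1, aligned the reads with TopHat 2.0.8 and Bowtie2 2.1.0 to GRCm38.p3, pooled the reads of a condition, and deposited FPKM with CuffDiff's interval bounds. Here, 7 genes whose status was not OK were dropped. Log2 changes used a pseudocount of 1. Genes were named when they reached an FPKM of 1 in either condition or passed 3-fold, with Cdh1 and Cdh2 always; lower members and list genes named beside these were chosen after their values were seen. Members and lists were chosen with earlier results of these data known. Symbols, positions and transcripts came from the Gencode release for GRCm38. Estimated reads are FPKM times transcript length less 180 bases, divided by the value of 1 read, found from 869 single-transcript genes in PID+ and 818 in PID-; they are approximate for genes with several transcripts. The steps were tested on simulated data. Alternatives changed the pseudocount, the scaling, the low-value filter, the threshold, the chromosome median and the C-type genes. Python 3.11.15, pandas 2.3.3, numpy 2.4.6 and matplotlib 3.10.9 were used.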

Additional observations from a re-analysis of the deposited data

How the results depend on the processing

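With a pseudocount of 0.1, 6 members were called higher (Pcdh17, Pcdhga5, Pcdhgb6, Pcdhga11, Cdh5 and Pcdh19) and 7 lower (Pcdh9, Pcdhga2, Pcdhga3, Pcdhgb2, Pcdhga6, Pcdhga9 and Cdh13), in place of 1 and 2. Of all 21959 genes, 621 were then called higher and 795 lower, in place of 229 and 377. The median log2 change of members reaching FPKM 1 was -0.16 with this pseudocount. With equal Gapdh 0 members were higher and this median was -0.66. The median was -0.24 with equal total FPKM, -0.17 with chromosome medians subtracted and -0.30 over members with a mean FPKM of at least 1. With a mean FPKM of at least 5 required, 0 members were higher and 1 lower, since fewer genes were left. At 2-fold 3 were higher and 4 lower, and by deposited intervals 0 and 0. No called member changed direction under the alternatives run. Of 80 values of the 16 named members, 74 moved by less than 1 SD derived from the deposited bounds, as did all 17 cluster values; the 6 that moved further did so with the pseudocount of 0.1 (4) or equal Gapdh (2). These SDs are wide (1.53 for Pcdhgb2, which went from -1.01 to -2.04 with the pseudocount of 0.1), so the count says little about stability. Where no construction shows it, the cause was not tested. Leaving out replicates could not be run, because values are pooled. The depth is unknown; by estimated reads, 21 members at the floor in both conditions have no fold and 14 at it in a single condition have a bound at most. The deposited intervals are wide: their median half-width was 80.4% of the FPKM in PID+ and 67.1% in PID- among members with a mean of at least 5.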
